A study of Mus musculus with 17 samples.

Results

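The 10 genes described here, of bone morphogenetic protein (BMP) and transforming growth factor beta (TGF-beta) signalling, were followed through 4 groups of sorted mouse macrophages. They were chosen by symbol: the nuclear factors Id1, Id2 and Id3, the inhibitory SMAD genes Smad6 and Smad7, the receptor genes Acvrl1, Bmpr2, Tgfbr1 and Tgfbr2, and the co-receptor gene Eng. All 10 were found, each as 1 entry, among the 40548 genes of the count table, and all 10 were abundant enough to be tested, as were 15285 genes in all. The mice carried 1 copy of a green fluorescent reporter at the chemokine receptor gene Cx3cr1 (Cx3Cr1-GFP/WT, C57BL/6), and so did every group. ATM HFD (n = 5) were macrophages of adipose tissue, selected by F4/80 and CD64. Cx3cr1pos HFD (n = 4) were reporter-positive liver macrophages, and HFD KC (n = 5) were F4/80-high, TIM4-positive Kupffer cells, the resident macrophages of the liver sinusoids. These 3 groups came from mice fed a high fat, high sucrose diet, and STD KC (n = 3) were Kupffer cells of mice fed standard chow, in each case for 16 weeks. The labels call 3 of the HFD KC libraries (hf1, hf2, hf3) CD68, the other two (hfd1, hfd2) and the STD KC and ATM HFD libraries frac_neg, and the Cx3cr1pos HFD libraries frac_pos. They do not say that each library was a separate animal, so the p-values measure the spread between these libraries.

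BMP and TGF-beta ligands bind pairs of type I and type II receptor kinases, which phosphorylate SMAD proteins. The phosphorylated SMADs enter the nucleus with SMAD4 and switch target genes on or off. BMP receptors act through SMAD1, SMAD5 and SMAD9, whose best known direct targets are the Id genes, Smad6 and Smad7, while TGF-beta receptors act mainly through SMAD2 and SMAD3. ID proteins carry a helix-loop-helix domain but no DNA-binding part, and they hold E proteins away from DNA. The type I receptor ALK1 (Acvrl1) and the co-receptor endoglin (Eng) are best known from blood vessel endothelium. ALK1 and ID factors are known to act in the making and upkeep of Kupffer cells.

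Libraries held between 25644835 and 38207943 counts, so that 3 counts corresponded to 0.0752 to 0.115 CPM (the standard depth-scaled count, here on library sizes scaled by TMM factors, and the level used throughout). Macrophage markers (Adgre1, Csf1r, Fcgr1, Cd68, Mertk, Lyz2) summed to 15956 to 20636 CPM in ATM HFD, 13977 to 19913 in Cx3cr1pos HFD, 17479 to 23127 in HFD KC and 20422 to 20660 in STD KC. The 6 Kupffer cell markers summed to 153 to 186 CPM in ATM HFD, 6005 to 14251 in Cx3cr1pos HFD, 33276 to 48349 in HFD KC and 42855 to 45672 in STD KC. One HFD KC library stood apart from its label: hfd2 had 402 CPM of Timd4, the gene of TIM4, against 1045 to 1655 CPM in the other HFD KC libraries. Markers of other cell types were detected too. The 12 markers of liver sinusoidal endothelium summed to 85.8 to 125 CPM in ATM HFD, 815 to 1115 in Cx3cr1pos HFD, 1456 to 4821 in HFD KC and 3779 to 5761 in STD KC, with no marker at 0 in any library. Stellate and fibroblast markers summed to 101 to 285 CPM in ATM HFD against 35.3 to 81.3 CPM in the liver groups fed the high fat diet. Of these 8 markers, 4 were higher in ATM HFD than in HFD KC (Col1a1, Col1a2, Col3a1, Dcn) and 3 lower (Lrat, Reln, Rgs5). Dcn alone averaged 98.0 CPM in ATM HFD. Adipocyte markers summed to 5.98 to 18.8 CPM in ATM HFD and to at most 2.16 CPM elsewhere.

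Sequence near the starts of Id2, Id3 and Smad6 is shown because they were among the genes that separated adipose from liver macrophages. The stretches come from RefSeq promoter entries of GRCm38.p6, in which 7 of the 10 genes had an entry and 8 windows of 250 bases before to 50 bases after a start. Each stretch is written 5′ to 3′ on the gene's own strand, with a motif in capitals. The motifs searched on both strands were GGCGCC, a GC-rich element bound by BMP-type SMADs, and the SMAD box, CAGAC, which is found as GTCTG when the other strand carries it. GTCTAGAC, a palindrome known as a SMAD-binding sequence, which holds neither CAGAC nor its reverse, was added after the Smad6 sequence had been read.
Smad6, chr9:64022040-64022209, minus strand, ending 20 bases into the first exon, GTCTAGAC across the start: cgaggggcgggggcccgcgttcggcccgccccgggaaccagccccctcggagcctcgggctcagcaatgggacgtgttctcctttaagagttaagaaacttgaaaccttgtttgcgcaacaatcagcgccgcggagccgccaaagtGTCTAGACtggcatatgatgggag
Id2, chr12:25096254-25096342, minus strand, inside the annotated gene but in no exon, GGCGCC in capitals: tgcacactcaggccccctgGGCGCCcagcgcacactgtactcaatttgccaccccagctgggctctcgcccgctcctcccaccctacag
Id3, chr4:136143643-136143671, plus strand, in an annotated exon, CAGAC in capitals: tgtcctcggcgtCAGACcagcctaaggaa
Id3, chr4:136143742-136143770, plus strand, in an annotated exon, GTCTG in capitals: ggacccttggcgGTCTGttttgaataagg
Among 32817 windows of the same length, 11.9% held GGCGCC, 49.6% held CAGAC or GTCTG, and 0.213% (70 windows) held GTCTAGAC. Id1, Acvrl1 and Smad7 had no entry and were not searched. Of the 8 windows of the other 7 genes, 3 held GGCGCC (Bmpr2, Tgfbr1, Id2), 4 held the SMAD box (Eng, Tgfbr1, Id3, Tgfbr2) and 1 held GTCTAGAC (Smad6). The E-box CANNTG, the kind of site E proteins bind, was in 5 of the 8 windows and in 72.3% of all windows, and its form CACGTG was in 0 of the 8 and in 7.15% of all. These matches describe letters in a window, and binding was not measured.

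The ID factors were all lower in adipose than in liver macrophages. Id1 had the largest fold estimates of the set, an order that was not tested. Id1 (ENSMUSG00000042745, chr2:152736251-152737410 of GRCm38) stood at 1.24, 2.26, 1.90, 2.37 and 1.70 CPM in ATM HFD libraries hfd1, hfd2, hf1, hf2 and hf3. It stood at 136, 124, 159.9 and 121 CPM in Cx3cr1pos HFD (hf1, hf2, hf3, hfd2), at 76.5, 126, 121, 139.5 and 132 CPM in HFD KC (hfd1, hfd2, hf1, hf2, hf3) and at 177, 154 and 141 CPM in STD KC (std1, std2, std3). Every ATM HFD library lay far below every liver library, with 33 to 83 counts each. Id1 was 62.5-fold lower in ATM HFD than in HFD KC (log2 fold change -5.96 ± 0.20 SE, edgeR quasi-likelihood adjusted p = 8.3e-13) and 71.0-fold lower than in Cx3cr1pos HFD (-6.15 ± 0.21, adjusted p = 9.8e-13). These comparisons share the ATM HFD libraries. In bulk RNA of this kind, fewer cells that express a gene and less RNA per cell cannot be told apart, and tissue cannot be told apart from the sort that was used in it.

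Id3 (ENSMUSG00000007872, chr4:136143497-136145755) was likewise lowest in ATM HFD. In the library order given for Id1, it stood at 49.9, 48.4, 65.2, 40.5 and 30.6 CPM in ATM HFD, at 1035, 1129.7, 1337 and 763 CPM in Cx3cr1pos HFD, at 1002, 916, 1244, 1182 and 1599.7 CPM in HFD KC and at 1681, 1816 and 1664 CPM in STD KC. The ATM HFD libraries were again apart from the other 3 groups, and STD KC lay above every HFD KC library. Id3 was 25.3-fold lower in ATM HFD than in HFD KC (-4.66 ± 0.22, edgeR adjusted p = 5.0e-11) and 22.7-fold lower than in Cx3cr1pos HFD (-4.51 ± 0.22, adjusted p = 1.5e-10). Id2 (ENSMUSG00000020644, chr12:25093799-25097140), known for its part in lymphoid and dendritic cell fates, was the ID factor that ATM HFD kept at a high level. It stood at 334, 312, 419, 269 and 260 CPM in ATM HFD, at 1491, 1456, 1713 and 1432 CPM in Cx3cr1pos HFD, at 1111, 1258, 1130.3, 1139 and 1386 CPM in HFD KC and at 1099, 873 and 940 CPM in STD KC. Id2 was lower in ATM HFD by 3.78-fold against HFD KC (-1.92 ± 0.13, edgeR adjusted p = 2.6e-09) and by 4.78-fold against Cx3cr1pos HFD (-2.26 ± 0.13, adjusted p = 1.4e-09). Whether Id1 and Id3 fell more than Id2 was not tested.

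The inhibitory SMAD genes, which encode feedback inhibitors of the receptors, fell with Id1 and Id3. Smad6 (ENSMUSG00000036867, chr9:63953076-64022059), which acts mainly on BMP receptors, was close to the limit of detection in ATM HFD, with 1, 8, 2, 4 and 1 counts (0.0375, 0.251, 0.0654, 0.114 and 0.0251 CPM). It stood at 2.95, 2.81, 3.79 and 1.95 CPM in Cx3cr1pos HFD, 3.90, 2.08, 3.04, 2.45 and 4.66 CPM in HFD KC, and 3.10, 4.42 and 3.61 CPM in STD KC. The groups of the liver overlapped, and ATM HFD overlapped none of them. Smad6 was lower in ATM HFD than in HFD KC (-4.99 ± 0.44, edgeR adjusted p = 7.8e-08) and than in Cx3cr1pos HFD (-4.82 ± 0.45, adjusted p = 2.8e-07), sizes that rest on these few counts. Smad7 (ENSMUSG00000025880), an inhibitor of BMP and TGF-beta receptors alike, stood at 0.563, 0.689, 0.752, 0.456 and 0.727 CPM in ATM HFD (15 to 29 counts), at 8.22, 6.62, 7.62 and 4.78 CPM in Cx3cr1pos HFD, at 6.85, 5.58, 7.21, 6.62 and 8.42 CPM in HFD KC and at 7.54, 9.44 and 9.39 CPM in STD KC. It was 10.8-fold lower in ATM HFD than in HFD KC (-3.43 ± 0.20, edgeR adjusted p = 5.4e-10) and 10.6-fold lower than in Cx3cr1pos HFD (-3.41 ± 0.21, adjusted p = 1.6e-09).

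**Figure D1:**
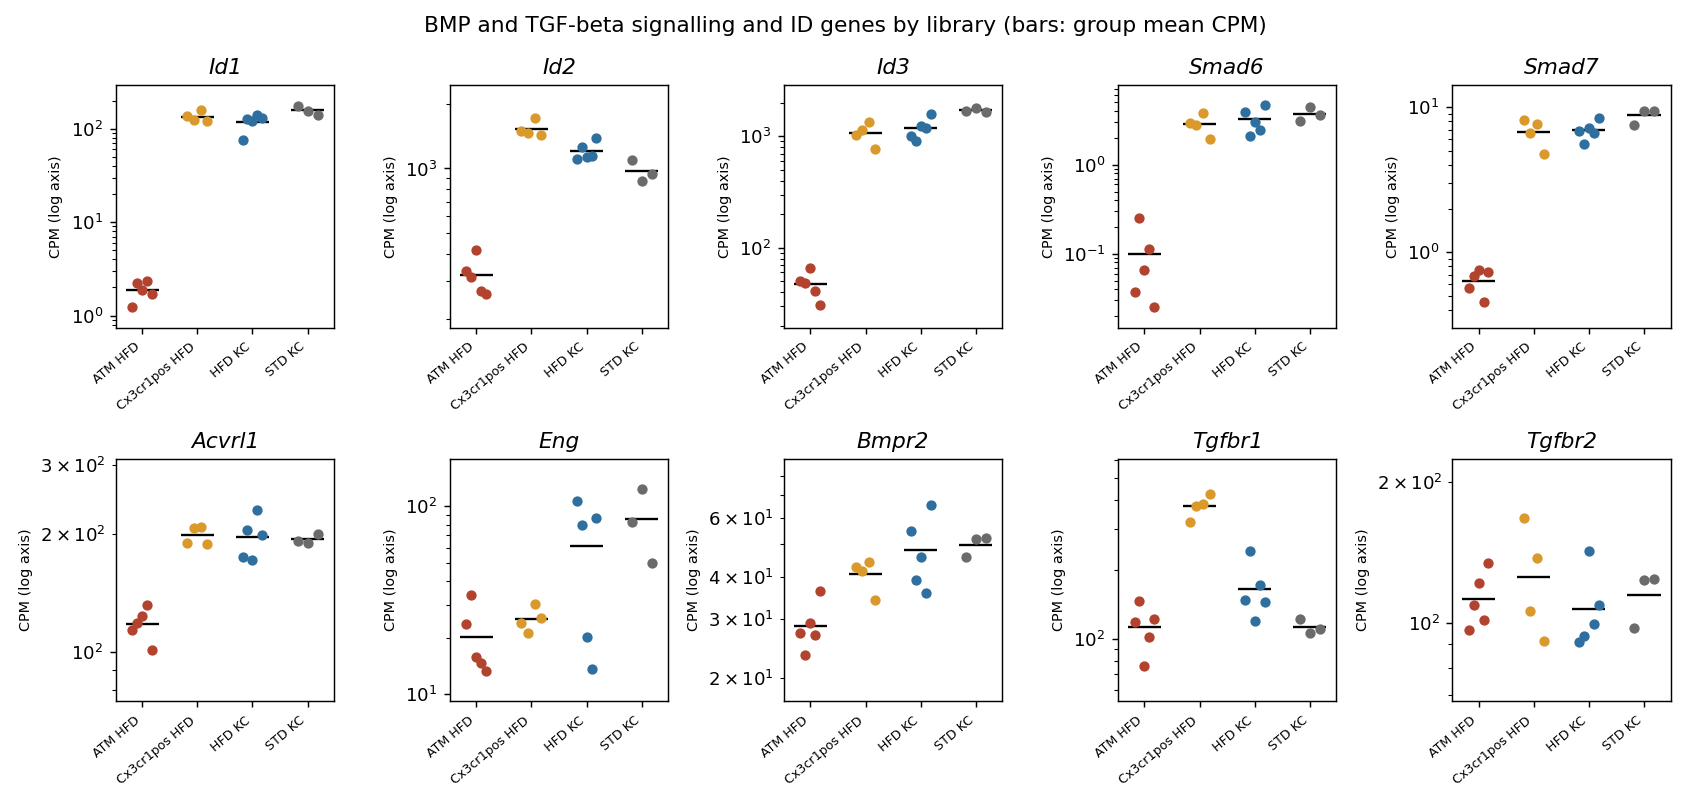
Level of each of the 10 genes in every library (points, CPM on a log axis) by group, with the group mean as a bar. Id1, Id3, Smad6 and Smad7 in ATM HFD lie apart from all liver libraries, Tgfbr1 is highest in Cx3cr1pos HFD, and Tgfbr2 overlaps in all 4 groups.

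In the adipose comparisons the receptors changed less than Id1 and Id3 did. Acvrl1 (ENSMUSG00000000530, chr15:101128522-101145336) stood at 114, 118, 124, 132 and 102 CPM in ATM HFD, at 190.3, 207, 208 and 189 CPM in Cx3cr1pos HFD, at 175, 205, 172, 229.9 and 199.5 CPM in HFD KC and at 193, 190.3 and 199.7 CPM in STD KC. ATM HFD lay below all liver libraries, and the liver groups overlapped. Acvrl1 was 1.66-fold lower in ATM HFD than in HFD KC (-0.73 ± 0.09, edgeR adjusted p = 4.1e-06) and 1.69-fold lower than in Cx3cr1pos HFD (-0.75 ± 0.10, adjusted p = 9.5e-06). Bmpr2 (ENSMUSG00000067336, chr1:59763400-59879014), the type II BMP receptor, ranged over 23.4 to 36.4 CPM in ATM HFD, 34.2 to 44.2 in Cx3cr1pos HFD, 35.8 to 65.7 in HFD KC and 45.9 to 52.1 in STD KC. It was lower in ATM HFD than in HFD KC (-0.75 ± 0.15, adjusted p = 0.00062). Against Cx3cr1pos HFD it was also lower (-0.51 ± 0.16, adjusted p = 0.019), a call that ended without any 1 of 6 libraries (Cx3cr1pos HFD hf2 or hf3, ATM HFD hfd1, hfd2, hf1 or hf2; -0.39 to -0.47, adjusted p = 0.051 to 0.078), on total counts (0.094) and with a term for the name prefix (0.058).

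Tgfbr1 and Tgfbr2 form the TGF-beta receptor, and the pair parted. Tgfbr1 (ENSMUSG00000007613, chr4:47353222-47414931), the type I kinase, stood at 119, 146, 75.8, 102 and 122 CPM in ATM HFD, at 323, 376, 387 and 428 CPM in Cx3cr1pos HFD, at 147, 242, 119, 172 and 145 CPM in HFD KC and at 122, 106 and 110 CPM in STD KC. Cx3cr1pos HFD lay above every other library, and the HFD KC library nearest to it was hfd2, the one low in Timd4. Tgfbr1 was 2.29-fold higher in Cx3cr1pos HFD than in HFD KC (1.20 ± 0.19, edgeR adjusted p = 0.00038, and 1.36 without HFD KC hfd2) and 3.35-fold lower in ATM HFD than in Cx3cr1pos HFD (-1.74 ± 0.19, adjusted p = 1.7e-06). In ATM HFD against HFD KC it was 1.46-fold lower (-0.55 ± 0.18, adjusted p = 0.017), and this call ended without HFD KC hfd2 (-0.34, 0.087), ATM HFD hf1 (-0.41, 0.062) or ATM HFD hf2 (-0.48, 0.057) and with only the groups compared (0.059). Tgfbr2 (ENSMUSG00000032440, chr9:116084293-116175360), the type II kinase that binds the ligand first, had 96.7 to 134 CPM in ATM HFD, 91.6 to 167 in Cx3cr1pos HFD, 91.1 to 143 in HFD KC and 97.3 to 124 in STD KC. No comparison of Tgfbr2 passed, and the 95% interval of its log2 fold change in ATM HFD over HFD KC ran from -0.27 to 0.41.

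Eng (ENSMUSG00000026814, chr2:32646595-32682669) varied more among HFD KC libraries than any other of the 10 genes varied within a group of the liver. It stood at 23.8, 33.7, 15.8, 14.7 and 13.3 CPM in ATM HFD, at 23.9, 21.1, 30.3 and 25.4 CPM in Cx3cr1pos HFD, at 106, 79.2, 20.0, 13.5 and 87.1 CPM in HFD KC and at 82.4, 123 and 49.9 CPM in STD KC. The HFD KC libraries hf1 and hf2 were low and the other 3 high, a 7.85-fold range. The same libraries differed in the summed endothelial markers, 1518 and 1456 CPM in hf1 and hf2 against 4821, 2385 and 4414 CPM in hfd1, hfd2 and hf3. The single markers were not alike. Their ranges within HFD KC ran from 1.47-fold for Cdh5 and 1.79-fold for Stab2 to 8.50-fold for Lyve1. Eng was lower in ATM HFD than in HFD KC (-1.60 ± 0.46, edgeR adjusted p = 0.0084), where all 12 endothelial markers were lower too. In Cx3cr1pos HFD against HFD KC it did not pass (-1.28 ± 0.49, adjusted p = 0.099), but it did with DESeq2 (-1.31, adjusted p = 0.034) and without HFD KC hf1 (-1.53, 0.036) or hf2 (-1.56, 0.021). The part of endothelial RNA in the Eng values was not tested. Smad6 was highest within HFD KC in hf3 and hfd1 (4.66 and 3.90 CPM), where the sum was large, and lowest in hfd2 (2.08 CPM). Id3 was highest in hf3 and lowest in hfd2 (1599.7 and 916 CPM). Id1 was lowest in hfd1 (76.5 CPM), where the sum was largest. In Cx3cr1pos HFD, whose sum was below that of every HFD KC library, Id1 averaged 135 ± 17.7 CPM (SD, n = 4), against 119 ± 24.7 CPM in HFD KC (SD, n = 5). The part of endothelial RNA in these genes was not tested either.

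**Figure D2:**
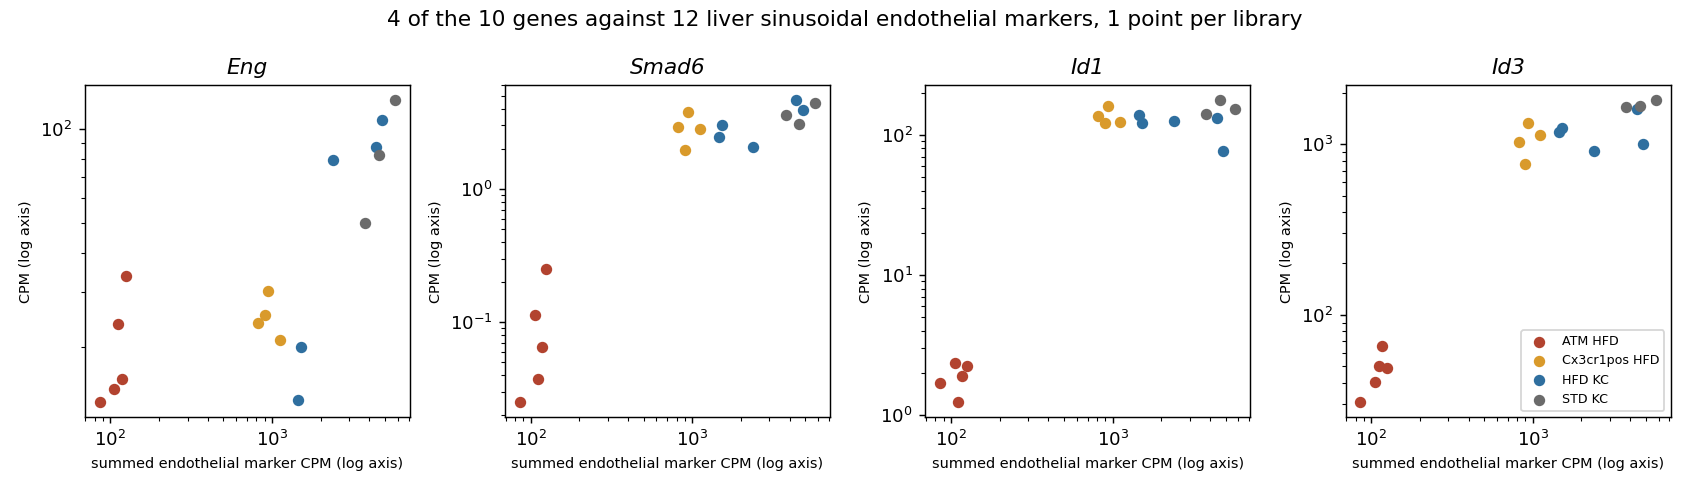
Levels of Eng, Smad6, Id1 and Id3 (CPM, log axis) against the sum of 12 liver sinusoidal endothelial markers (CPM, log axis), 1 point per library, coloured by group. Among HFD KC libraries, Eng is low where the marker sum is 1456 or 1518 CPM and high where it is larger, Smad6 is highest in hf3 and hfd1, and Id1 is lowest at the largest sum.

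Counted together, 9 of the 10 genes were lower in ATM HFD than in HFD KC and Tgfbr2 did not pass, against 49.0% of all genes tested called (23.8% higher, 25.2% lower). The median log2 fold change was -1.76, against 0.001 over all genes. Against Cx3cr1pos HFD 8 of the 10 were lower, all but Eng and Tgfbr2, with a median of -2.00. Over all genes this comparison called 39.7% (18.9% higher, 20.8% lower), with a median of -0.03. Libraries did not overlap for 6 of the 10 against HFD KC and for 7 against Cx3cr1pos HFD, beside 34.0% and 31.7% of all genes tested. The 10 genes were chosen with earlier results of these data known, so these shares describe the set and are no test of it. Smad6, close to the limit of detection in ATM HFD, was abundant enough to be tested through its liver libraries only.

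The liver groups fed the high fat diet differed in Kupffer cell identity genes. In Cx3cr1pos HFD against HFD KC 1 of the 10 passed, Tgfbr1, a share close to the 13.3% called over all genes (5.85% higher, 7.48% lower). All 6 Kupffer cell markers were lower in this comparison, with a median log2 fold change of -3.85. Timd4, the gene of TIM4 by which HFD KC were sorted, is 1 of the 6, so its difference was not independent of the sort. Among the known BMP targets the estimates were 0.18 (95% interval -0.17 to 0.54) for Id1, -0.16 (-0.58 to 0.27) for Id3, -0.17 (-0.92 to 0.59) for Smad6 and -0.03 (-0.42 to 0.36) for Smad7, the interval being widest for Smad6. For the receptor Acvrl1 the estimate was 0.02 (-0.18 to 0.22). For Eng it was -1.28 (-2.33 to -0.24, edgeR adjusted p = 0.099), and Eng passed in some alternative runs, as given above. Intervals of this width do not show that the genes were unchanged. The estimate for Id2 was 0.34 ± 0.13 (edgeR adjusted p = 0.10), and it was 1 of 2 genes of the set, with Tgfbr1, whose libraries did not overlap between these groups, against 12.7% of all genes tested.

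For the diet, HFD KC against STD KC, 0 of the 10 genes passed in edgeR, against 3.40% of all genes (2.27% higher, 1.13% lower), and 0 passed in DESeq2. At an unadjusted p under 0.05 there were 4, Id1, Id2, Id3 and Tgfbr1, against 17.4% of all genes. Id1 averaged 119 ± 24.7 CPM in HFD KC and 157 ± 18.2 CPM in STD KC (log2 fold change -0.40, 95% interval -0.79 to -0.02, adjusted p = 0.26). Id3 averaged 1189 ± 265 CPM in HFD KC and 1720.0 ± 83.2 CPM in STD KC (-0.53, -0.99 to -0.08, adjusted p = 0.20). The HFD KC and STD KC libraries did not overlap for 3 of the 10 genes, with Id1 and Id3 below and Id2 above in HFD KC, against 14.0% of all genes tested. Lymphocyte markers summed to 30.7 to 163 CPM in HFD KC and 11.2 to 11.9 CPM in STD KC. Dendritic cell markers summed to 17.8 to 126 and 28.7 to 33.2 CPM, and endothelial markers to 1456 to 4821 and 3779 to 5761 CPM, in the same order. The part of such cells in these 3 genes was not tested. Tgfbr1 averaged 165 ± 46.9 CPM in HFD KC and 113 ± 8.49 CPM in STD KC (0.55, 0.11 to 0.99, adjusted p = 0.17). With only the frac_neg HFD KC libraries, which share the sort label of STD KC, the estimates were -0.63 for Id1, -0.84 for Id3, 0.29 for Id2 and 0.79 for Tgfbr1, and with only the CD68 libraries they were -0.28, -0.37, 0.31 and 0.35 in the same order, none past the threshold.

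**Figure D3:**
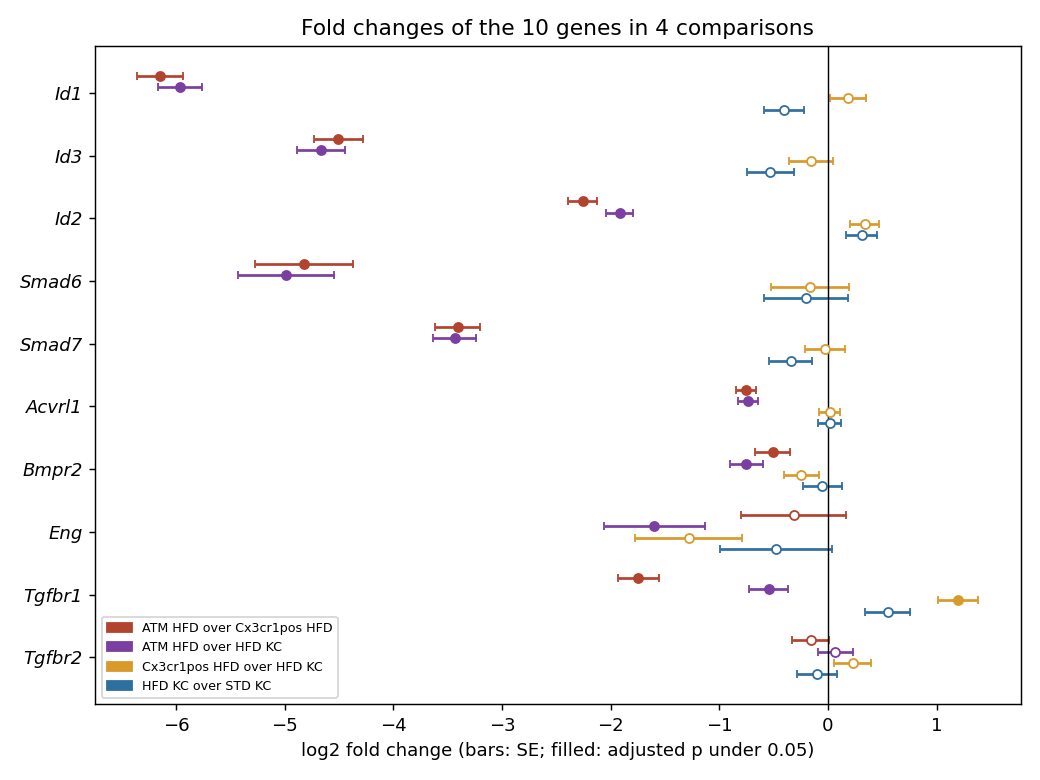
Log2 fold change of each gene (x axis, bars are SE) in the 4 comparisons, one colour each, with filled points where the adjusted p was under 0.05. The adipose comparisons lie far to the left for Id1, Id3, Smad6 and Smad7, and none of the points of HFD KC over STD KC is filled.

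Levels between genes were compared as CPM per kilobase of exon (GENCODE M21). The length was that of all annotated exons of a gene joined, from 1.16 kb for Id1 to 17.98 kb for Bmpr2. Which transcripts were made was not measured, so the order depends on these lengths. In ATM HFD the highest was Id2 at 131 ± 26.1, followed by Acvrl1 at 27.7 ± 2.65 and Id3 at 26.2 ± 7.12, which did not differ beyond their SDs. Tgfbr1 (17.3 ± 4.01) and Tgfbr2 (13.7 ± 1.86) came next, then Eng (5.00 ± 2.12), Id1 (1.63 ± 0.39), Bmpr2 (1.59 ± 0.27), Smad7 (0.141 ± 0.028) and Smad6 (0.031 ± 0.029). In adipose macrophages the receptor Acvrl1 stood above Id1, a known target of its signal. In Cx3cr1pos HFD the order began with Id2 (625 ± 52.9) and Id3 (595 ± 133), which overlapped, then Id1 (116 ± 15.3), Tgfbr1 (57.9 ± 6.63) and Acvrl1 (46.6 ± 2.43). In HFD KC it was Id3 (664 ± 148), Id2 (494 ± 47.9), Id1 (103 ± 21.3), Acvrl1 (46.0 ± 5.55) and Tgfbr1 (25.2 ± 7.18), and in STD KC Id3 (960.4 ± 46.5), Id2 (398 ± 47.6), Id1 (136 ± 15.7), Acvrl1 (45.5 ± 1.15) and Eng (21.1 ± 9.10). In both Kupffer cell groups, as in Cx3cr1pos HFD, Bmpr2, Smad7 and Smad6 were the lowest, in that order.

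The likeness of patterns was measured over 9277 genes with a mean of at least 5 CPM, as the root mean square difference of log2 CPM centred on each gene's mean over the 17 libraries. Nearest to Id3 were Ly6e (0.319), Abi3 (0.369), Irf7 (0.426), Helz2 (0.440) and Mtus1 (0.446), where the median over all genes was 2.20. The SD of Id3 itself over the 17 libraries was 2.27, so that median largely reflects the spread of Id3. Ly6e, a surface protein gene, averaged 157 ± 37.6 CPM in ATM HFD, 3672 ± 310 in Cx3cr1pos HFD, 3859 ± 327 in HFD KC and 4884 ± 115 in STD KC. Nearest to Acvrl1 were Irf9 (0.112), Elmod3 (0.129), Commd8 (0.130), Tor1aip1 (0.132) and Rnf114 (0.143), with a median of 0.466 over all genes. These values describe 17 libraries that fall into 4 groups.

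Among the other receptor genes, the type I BMP receptor Bmpr1a followed the Kupffer cell sort. It stood at 0.863, 1.60, 0.719, 0.485 and 1.96 CPM in ATM HFD, at 0.995, 0.730, 0.622 and 0.802 CPM in Cx3cr1pos HFD, at 9.74, 2.96, 16.0, 11.4 and 11.1 CPM in HFD KC and at 11.66, 11.98 and 11.89 CPM in STD KC. The lowest HFD KC library was hfd2, which was also lowest in Timd4. Bmpr1a was lower in Cx3cr1pos HFD than in HFD KC (-3.70 ± 0.46, edgeR adjusted p = 4.4e-05, and -3.95 without hfd2) and lower in ATM HFD than in HFD KC (-3.17 ± 0.40, adjusted p = 5.4e-06). Of the 13 receptor and co-receptor genes tested, 6 were lower and 2 higher in ATM HFD against HFD KC, where 49.0% of all genes were called, and 4 were lower and 1 higher against Cx3cr1pos HFD, where 39.7% were (2 lower without Cx3cr1pos HFD hf3 or without ATM HFD hfd1, hfd2 or hf2). Against HFD KC, 2 were lower in Cx3cr1pos HFD (Bmpr1a, Tgfbr3) and 1 was higher, where 13.3% of all genes were called. The co-receptor gene Tgfbr3, betaglycan, averaged 3.33 ± 1.12 CPM in ATM HFD, 6.044 ± 1.003 in Cx3cr1pos HFD, 16.2 ± 11.3 in HFD KC and 15.6 ± 4.67 in STD KC. Within HFD KC it was lowest in hf1 and hf2 (6.50 and 4.61 CPM) and highest in hfd1 and hf3 (27.1 and 28.8 CPM), as the endothelial marker sum was, whose part was not tested. It was lower in ATM HFD than in HFD KC (-2.28 ± 0.43, adjusted p = 0.00028). In Cx3cr1pos HFD against HFD KC (-1.42 ± 0.44, adjusted p = 0.043) the call ended with libraries of the same name as a replicate block (adjusted p = 0.14), without HFD KC hfd1 (0.11) or hf3 (0.11) and without any 1 of the 4 Cx3cr1pos HFD libraries (0.078 to 0.096). In HFD KC against STD KC 0 receptor genes passed in edgeR, where 3.40% of all genes did, or in DESeq2. Tgfbr1 alone of them had an unadjusted p under 0.05, against 17.4% of all genes.

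Of 14 ligand genes tested, 5 were lower and 3 higher in ATM HFD against HFD KC (5 higher without ATM HFD hf1), and 6 were lower and 2 higher against Cx3cr1pos HFD, where 49.0% and 39.7% of all genes were called. Bmp2, a BMP made by liver endothelium in known anatomy, averaged 4.44 ± 0.49 CPM in ATM HFD, 10.7 ± 3.08 in Cx3cr1pos HFD, 27.2 ± 18.5 in HFD KC and 32.8 ± 6.28 in STD KC. Within HFD KC it was lowest in hf1 and hf2 (13.5 and 6.49 CPM), as Eng and the endothelial marker sum were, and its part in that RNA was not tested. Bmp2 was lower in ATM HFD than in HFD KC (-2.62 ± 0.40, edgeR adjusted p = 4.5e-05). Tgfb3 was lower in ATM HFD than in HFD KC (-1.95 ± 0.49, adjusted p = 0.0031, and -1.29 without HFD KC hfd2, its highest library of that group at 37.5 CPM) and than in Cx3cr1pos HFD (-2.46 ± 0.51, adjusted p = 0.0010). Gdf15, a stress-induced ligand, averaged 14.98 ± 8.47 CPM in ATM HFD and 48.6 ± 17.8 in Cx3cr1pos HFD (-1.70 ± 0.37, adjusted p = 0.0016). Tgfb1, outside the naming rule, was low in all groups, 2.71 ± 0.92 CPM in ATM HFD, 3.16 ± 0.39 in Cx3cr1pos HFD, 2.84 ± 0.51 in HFD KC and 2.97 ± 0.27 in STD KC, and passed in no comparison. In Cx3cr1pos HFD against HFD KC 2 ligands were lower (Tgfb2, Bmp2), where 13.3% of all genes were called. That count was 0 with the replicate block, where 2 were higher, and 0 without HFD KC hfd1, hfd2 or hf3 or without Cx3cr1pos HFD hf1, hf3 or hfd2. The Bmp2 call ended with the block (adjusted p = 0.13). For the diet 1 ligand gene passed, Inhbb, the beta B chain of activin and inhibin, at 4.36 ± 3.06 CPM in HFD KC against 0.705 ± 0.325 CPM in STD KC (2.62 ± 0.68, adjusted p = 0.043), and 0 passed without STD KC std2 or std3 or without HFD KC hfd2 or hf3. The count was 3 with DESeq2, and 2 with no filter, with only the frac_neg libraries or without HFD KC hf1. Over all genes 3.40% passed for the diet in the main fit.

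Of the signal-carrying SMAD genes, the BMP-type Smad9 was low everywhere and lowest in ATM HFD, and the others changed by less than Smad6 and Smad7 in the adipose comparisons. Smad9 had 0, 2, 0, 0 and 2 counts in ATM HFD, 0, 12, 0 and 13 counts in Cx3cr1pos HFD and 11 to 75 counts in HFD KC, and averaged 0.0226 ± 0.0312 CPM in ATM HFD against 1.12 ± 0.731 CPM in HFD KC (-5.34 ± 0.9997, edgeR adjusted p = 0.00028, a size that rests on these few counts). Smad1, a BMP-type SMAD, averaged 24.2 ± 2.78 CPM in ATM HFD and 38.8 ± 4.35 CPM in HFD KC (-0.68 ± 0.13, edgeR adjusted p = 0.00025), and Smad5, of the same type, averaged 16.5 ± 2.88 and 23.4 ± 5.46 CPM in those groups (-0.50 ± 0.14, adjusted p = 0.0079, and -0.33 without HFD KC hf1). Smad3, of the TGF-beta type, averaged 16.1 ± 5.77 CPM in Cx3cr1pos HFD and 8.64 ± 1.71 CPM in HFD KC (0.90 ± 0.21, adjusted p = 0.0084). Smad2, of the same type, was 54.7 ± 3.37 CPM in ATM HFD and 47.1 ± 3.02 CPM in HFD KC (0.22 ± 0.08, adjusted p = 0.026, and adjusted p = 0.092 with no filter on low counts). In Cx3cr1pos HFD against HFD KC Smad2 passed (0.28 ± 0.08, adjusted p = 0.027) but not with the replicate block (0.077), nor without HFD KC hfd1, hfd2 or hf1 or without Cx3cr1pos HFD hf1 (0.062 to 0.11), with no filter or with only the groups compared. Of the 8 SMAD genes, the 2 inhibitory ones included, 5 were lower and 1 higher in ATM HFD against HFD KC, where 49.0% of all genes were called. Against Cx3cr1pos HFD, where 39.7% of all genes were called, 5 were lower. The count was 3 without Cx3cr1pos HFD hf1, Cx3cr1pos HFD hf3 or ATM HFD hf2, and 2 without ATM HFD hf1. In HFD KC against STD KC 0 of the 8 passed in edgeR or DESeq2, and 0 had an unadjusted p under 0.05. Over all genes 3.40% passed in edgeR and 17.4% had such an unadjusted p.

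Of 13 inhibitors and negative regulators tested, 6 were higher and 1 lower in ATM HFD against HFD KC (23.8% higher and 25.2% lower over all genes), and 5 were higher and 4 lower against Cx3cr1pos HFD (18.9% higher and 20.8% lower over all genes). The one lower in both was Skil (SnoN), a nuclear corepressor of SMADs, at 119 ± 11.02 CPM in ATM HFD, 320.4 ± 32.7 in Cx3cr1pos HFD and 257 ± 8.67 in HFD KC (-1.11 ± 0.09 over HFD KC, edgeR adjusted p = 1.5e-08, and -1.42 ± 0.09 over Cx3cr1pos HFD, 3.0e-09). Fstl1, a secreted follistatin-like protein, averaged 22.1 ± 7.07 CPM in ATM HFD against 2.94 ± 1.94 CPM in HFD KC (2.91 ± 0.39, adjusted p = 1.0e-05). The sum of stellate and fibroblast markers was also higher in ATM HFD, though 3 of the 8 markers were lower. The part of such cells was not tested. Twsg1, which binds BMPs outside the cell, averaged 13.8 ± 1.72 CPM in ATM HFD and 7.03 ± 2.09 CPM in HFD KC (0.98 ± 0.19, adjusted p = 0.00045). Pmepa1, a TGF-beta-induced inhibitor, averaged 5.48 ± 0.86 CPM in Cx3cr1pos HFD and 1.96 ± 0.53 CPM in HFD KC (1.48 ± 0.23, adjusted p = 0.00038). Tgif1, a SMAD corepressor, was the 1 inhibitor of 13 that passed in edgeR for the diet, against 3.40% of all genes, at 131 ± 18.8 CPM in HFD KC against 196 ± 14.9 CPM in STD KC (-0.58 ± 0.13, adjusted p = 0.019). That call ended without STD KC std2 (0.095) or std3 (0.11), with only the groups compared (0.058) and with only the CD68 libraries (0.065). DESeq2 called 3 inhibitors lower and 1 higher for the diet, and 1 was also higher with only the frac_neg libraries or without HFD KC hf2.

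Of 10 genes tested that store or release latent TGF-beta, 4 were higher and 2 lower in ATM HFD against HFD KC, where 49.0% of all genes were called, and 5 were higher and 3 lower against Cx3cr1pos HFD, where 39.7% were (3 higher without Cx3cr1pos HFD hf2 or hf3). Nrros, which anchors latent TGF-beta on macrophages and microglia, averaged 536 ± 25.7 CPM in ATM HFD, 429 ± 63.4 in Cx3cr1pos HFD, 358 ± 19.3 in HFD KC and 352 ± 29.2 in STD KC (0.58 ± 0.09 in ATM HFD over HFD KC, edgeR adjusted p = 5.3e-05). Ltbp3 was higher (2.95 ± 0.41, adjusted p = 1.3e-05) and Ltbp4 lower (-3.25 ± 0.45, adjusted p = 1.4e-05) in ATM HFD than in HFD KC, both latent TGF-beta binding proteins. Ltbp4 averaged 2.85 ± 1.06 CPM in ATM HFD and 27.2 ± 19.0 CPM in HFD KC, where it was lowest in hf1 and hf2 (9.76 and 9.22 CPM) and highest in hfd1 and hf3 (46.5 and 47.9 CPM), like the endothelial marker sum, whose part was not tested. Lrrc32 (GARP), which holds latent TGF-beta on the cell surface, averaged 5.13 ± 1.96 CPM in ATM HFD and 30.6 ± 19.9 CPM in HFD KC (-2.58 ± 0.44, adjusted p = 0.00012). Like Eng, it was lowest within HFD KC in hf1 and hf2 (12.7 and 7.46 CPM). Itgav, the alpha chain of the integrins that release TGF-beta, averaged 177 ± 41.7 CPM in Cx3cr1pos HFD and 99.8 ± 22.3 CPM in HFD KC (0.82 ± 0.17, adjusted p = 0.0043).

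E protein genes, whose products the ID factors bind, moved by less than Id1 in the same comparisons. Tcf4 averaged 148 ± 5.04 CPM in ATM HFD and 104 ± 5.41 CPM in Cx3cr1pos HFD (0.51 ± 0.12, edgeR adjusted p = 0.0024), and Tcf12 averaged 36.7 ± 7.24 CPM in ATM HFD and 25.8 ± 4.55 CPM in HFD KC (0.51 ± 0.14, adjusted p = 0.0074). Of the 7 ID and E protein genes, 5 (the 4 ID genes and Tcf3) were lower and 2 higher in ATM HFD against HFD KC (1 higher without HFD KC hf1 or hf2), and 4, the ID genes, were lower and 1 higher against Cx3cr1pos HFD. Over all genes 49.0% and 39.7% were called in these comparisons. Of 17 known SMAD target genes tested, 8 were lower and 4 higher in ATM HFD against HFD KC, and 11 were lower and 3 higher against Cx3cr1pos HFD, where 49.0% and 39.7% of all genes were called. The list holds Id1, Id2, Id3, Smad6 and Smad7, which are part of those counts. Tgfbi, a matrix protein gene known to be induced by TGF-beta, averaged 897 ± 647 CPM in ATM HFD, 884 ± 169 in Cx3cr1pos HFD and 304 ± 68.9 in HFD KC. Its ATM HFD libraries ran from 506 to 2030 CPM, with a median of 610 CPM. Tgfbi was higher in Cx3cr1pos HFD than in HFD KC (1.54 ± 0.33, edgeR adjusted p = 0.0050). It was also higher in ATM HFD than in HFD KC (1.56 ± 0.32, adjusted p = 0.00065), a call not followed through the alternatives. Runx3 averaged 15.8 ± 8.44 CPM in Cx3cr1pos HFD and 1.03 ± 0.66 CPM in HFD KC (3.93 ± 0.46, adjusted p = 2.8e-05). It is also known from lymphocytes, whose summed markers were 36.4 to 199.6 CPM in Cx3cr1pos HFD and 30.7 to 163 CPM in HFD KC, and their part was not tested. In Cx3cr1pos HFD over HFD KC 5 targets were higher (3 without Cx3cr1pos HFD hf1 or hf3) and 1 was lower. Over all genes 5.85% were higher and 7.48% lower.

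**Figure D4:**
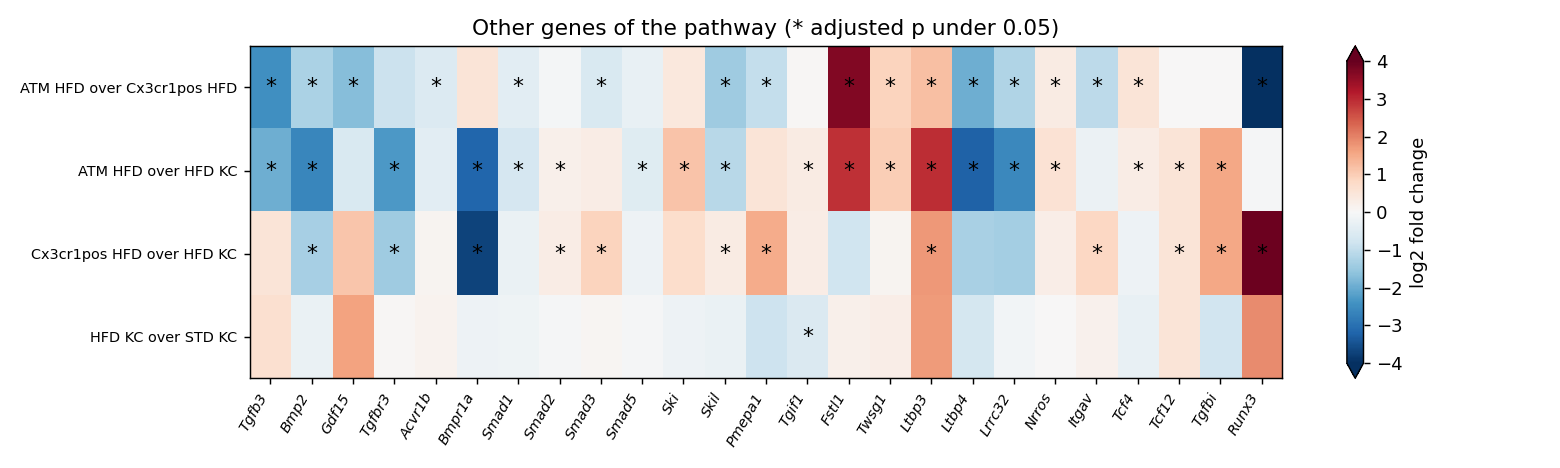
Log2 fold change (colour, limited to -4 to 4) of the further pathway genes that met the naming rule, by comparison, with a star where the adjusted p was under 0.05. Bmpr1a is lower in both comparisons over HFD KC, Fstl1 is higher in both ATM HFD comparisons, and in HFD KC over STD KC the only star is Tgif1.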

How the data were processed

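RNA of 17 libraries was measured. Per the labels' protocols, cDNA was made from sorted-cell RNA by SMARTer amplification and sequenced from one end. Per the submitters' processing notes the tools were bcl2fastq, STAR 2.0.4b and Subread featureCounts 1.4.5. Genome build, annotation, strand and treatment of duplicates are not given in the sources used here, so depth covers counting error only, and reads of overlapping genes could not be traced. The deposited values are whole counts per gene by the authors, in 40824 entries, of which 276 repeats with identical counts were dropped. Positions are from GENCODE M21.

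Genes passing filterByExpr were fitted in edgeR 4.0.16 (R 4.3.3, limma 3.58.1): TMM factors, 1 coefficient per group over all libraries, quasi-likelihood F-tests, two-sided, Benjamini-Hochberg over 15285 genes, threshold 0.05. SDs are of CPM, and ± after a log2 fold change is its SE. DESeq2 1.42.0, RLE factors, total counts, no filter, only the groups compared, sort label subsets, a name prefix term, a replicate block and leaving out each library were alternatives. Members and lists were chosen with earlier results of these data known. Of each further list and comparison, up to 4 called genes (smallest adjusted p) could be named, if their higher group averaged 5 CPM or more. Tgfb1, Tgfb2, Inhbb, Smad9 and Tcf3, and Tgfbi in ATM HFD over HFD KC, are given beyond that, picked once their values were known.

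HFD KC and Cx3cr1pos HFD libraries of the same name deviated together (correlation across genes 0.166 to 0.301 in 4 pairs, against -0.240 to 0.160 for other names) and were read as pairs. The main fit held no term for these pairs, so its p-values for this comparison ignore them. Among the genes open to naming there, the replicate block, an alternative, ended the calls of Bmp2, Tgfbr3, Smad2 and Skil. In simulated counts of HFD KC over STD KC, 10% of genes changed 1.5-fold were called and 40% of those changed 2-fold. The share was 70% at 4-fold and 90% at 8-fold, with 4 false calls among 14932 genes. Each share rests on 50 genes drawn at random whatever their level, and genes not drawn had 1 mean in all libraries. The shares are therefore not those of the 10 genes described here.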

Additional observations from a re-analysis of the deposited data

How the results depend on the processing

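Of 640 values of the 10 genes under alternatives, 604 kept direction and side of the threshold, 12 lost their call, 3 gained one and 21 changed sign, all 21 among values that passed nowhere. The calls of Id1, Id2, Id3, Smad6, Smad7 and Acvrl1 in both adipose comparisons held in each alternative run. The count of the 10 genes that passed in Cx3cr1pos HFD over HFD KC was 2 with DESeq2 (Tgfbr1 and Eng) and 1 to 2 with 1 library left out. In ATM HFD it was 8 to 9 over HFD KC and 7 to 8 over Cx3cr1pos HFD with 1 library left out, and it stayed 0 for the diet. For Acvrl1 in Cx3cr1pos HFD over HFD KC the log2 fold change was -0.0025 with RLE factors, -0.0027 with DESeq2, -0.017 with the replicate block and -0.0095 with the name prefix term, and -0.049 to 0.068 with 1 library left out. With 1 library left out, that comparison gave -0.33 to 0.0042 for Smad6 and -0.13 to 0.090 for Smad7. The diet comparison gave -0.060 to 0.057 for Acvrl1, -0.19 to 0.028 for Bmpr2, and Tgfbr2 in ATM HFD over Cx3cr1pos HFD gave -0.23 to 0.011. With only the frac_neg HFD KC libraries Acvrl1 was -0.032 and Eng 0.12, and with only the CD68 libraries Tgfbr2 was 0.0091. The cause was not tested. With the replicate block the counts were 1 in Cx3cr1pos HFD over HFD KC, 9 in ATM HFD over HFD KC and 8 in ATM HFD over Cx3cr1pos HFD. Names shared with ATM HFD were not read as pairs, since the correlations overlapped those of other names. With HFD KC they were -0.020 to 0.186, against -0.164 to 0.131 for other names. With Cx3cr1pos HFD they were 0.046 to 0.204, against -0.207 to 0.118 for other names. There the block ended the call of Smad3 in ATM HFD over Cx3cr1pos HFD (adjusted p = 0.087). Over all genes, DESeq2 called 1162 for the diet against 519 in edgeR, 231 passed with only the groups compared, and 291, 125 and 161 passed without STD KC std1, std2 and std3. In Cx3cr1pos HFD over HFD KC 1327 passed without Cx3cr1pos HFD hf3, against 2037. Depth limits Smad6 in ATM HFD, where 3 of 5 libraries held fewer than 3 counts.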
